A study of Mus musculus with 6 samples.

Results

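Trbv31 is the mouse TCR-β variable gene also known as Vβ14 (Tcrb-V14 among the RefSeq synonyms), and its members here are all clones whose first-ranked V gene was Trbv31 (TRBV31 in the clone tables). These were 25461 of 352074 clones over 6 libraries, of which 24194 were coding, meaning that the CDR3 (the hypervariable loop encoded by the V-D-J join) had neither a frameshift nor a stop codon. CD4+ T cells came from the left kidney with unilateral ureteral obstruction (UUO) and from the spleen of 3 C57BL/6 wildtype mice. All 3 mice, which per the study's methods were females of 10 to 14 weeks, first had reversible UUO (RUUO) on the right side, with the clip in place between days 0 and 6. The left ureter was ligated on day 17 and organs were taken on day 22. Kidney cells were purified by negative selection and then CD4 (L3T4) microbeads, and spleen cells by the microbeads alone, before both were sorted as CD4+. There was 1 library per organ and mouse and none from sham-operated mice. Only TCR-β mRNA was measured, so the CD4+ label could not be checked against marker genes, and the number of T cells and the TCR-β mRNA per cell cannot be told apart.

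The TCR-β chain is assembled in the thymus by joining a V, a D and a J segment, with bases trimmed from the segment ends and others added between them. Nearly all Trbv genes lie upstream of the D and J segments and join them by deleting the DNA in between. Trbv31 lies downstream of the last constant gene in the opposite orientation, and it joins by inversion, so that the intervening DNA is kept in the chromosome. In the RefSeq table for GRCm38.p6, Trbv31 occupies chr6:41557693-41558371 (679 bases, a V segment), and it was the single Trbv gene listed beyond Trbc2, the second constant gene. Its start lay 24.5 kb from the end of Trbd1 and 9.51 kb from the end of Trbc2, whereas the end of Trbv30, the nearest listed Trbv gene on the other side, lay 251 kb before Trbd1. Each D segment stands before its own cluster of J segments, Trbd1 before the Trbj1 genes and Trbd2 before the Trbj2 genes, so that a Trbd1 can join either cluster but a Trbd2 only Trbj2 in the usual order.

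The Trbv31 join is best seen in the sequences, which are shown for the intact V end and for the Trbv31 clonotype with the most unique molecular identifiers (UMIs, tags that count mRNA molecules) in each library. Sequences run 5′ to 3′ from the conserved cysteine codon to the last codon of the CDR3, and capitals mark the bases that MiXCR, the authors' clone assembler, placed between the V part and the J part, D bases included. A clonotype here is a CDR3 nucleotide sequence with its V and J gene.
Intact V end of Trbv31: tgtgcctggagtc
Kidney 1, Trbj2-1, 6 UMIs: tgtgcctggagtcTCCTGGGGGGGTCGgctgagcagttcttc
Kidney 2, Trbj2-2, 4 UMIs: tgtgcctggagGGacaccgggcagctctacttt
Kidney 3, Trbj1-4, 4 UMIs: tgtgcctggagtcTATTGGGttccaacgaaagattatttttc
Spleen 1, Trbj2-3, 16 UMIs: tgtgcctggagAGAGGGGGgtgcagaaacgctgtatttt
Spleen 2, Trbj2-2, 37 UMIs: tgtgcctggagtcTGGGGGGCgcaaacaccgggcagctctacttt
Spleen 3, Trbj2-3, 22 UMIs: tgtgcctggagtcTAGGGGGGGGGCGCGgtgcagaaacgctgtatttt
The V part of 13 bases was the shortest of the 22 Trbv genes with at least 100 coding clonotypes in every spleen. It was 14 bases in Trbv20 and Trbv30 and 15 to 17 bases in the other 19. It encodes cysteine, alanine, tryptophan and serine and leaves 1 base of the next codon. Tryptophan stood at the third CDR3 residue in 97.1% ± 0.214 (SD, n = 3) of spleen Trbv31 clonotypes, where serine stood in 83.0% ± 0.454 (SD, n = 3) of the clonotypes of other Trbv genes. That codon, which gives the fifth residue, thus starts with the last V base where the V end is intact. The residue was leucine in 43.2% ± 0.160 (SD, n = 3) of Trbv31 clonotypes and in 14.2% ± 0.261 (SD, n = 3) of the others. This share therefore depends in part on the V end and is not a property of the added bases alone.

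Library depth differed widely between the organs. Kidney libraries held 773, 1248 and 693 coding UMIs in mice 1, 2 and 3, and the spleen libraries 160179, 224811 and 97735. The coding clonotypes of Trbv31 accordingly numbered 26, 43 and 27 per kidney and 8271, 10374 and 5453 per spleen, so the features of the join were tested in the spleen. All Trbv31 clones had a single V call, and no clone of another gene listed Trbv31 as a lower-ranked call. The p-values rest on 3 mice. The edgeR and limma tests share their estimate of spread over all genes tested. Their p-values thus do not measure the spread between the 3 mice alone.

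Trbv31 made up a slightly smaller share of the kidney than of the spleen repertoire. Of coding UMIs, Trbv31 took 5.95%, 4.81% and 4.76% in kidneys 1, 2 and 3 and 6.42%, 6.24% and 6.54% in the spleens. Every kidney thus lay below every spleen, as was the case for 20.8% of the 24 Trbv genes tested. The log2 difference of kidney against spleen was -0.32 (SE 0.183), and it did not pass the test (edgeR quasi-likelihood test, adjusted p = 0.35). By this test 4.17% of the 24 Trbv genes passed. The exact binomial 95% intervals of the kidney shares were wide, from 4.39% to 7.86% in kidney 1, 3.69% to 6.15% in kidney 2 and 3.30% to 6.62% in kidney 3. These intervals cover counting error only.

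Counted by distinct clonotypes, Trbv31 held 5.38%, 5.66% and 5.71% of the clonotypes in kidneys 1, 2 and 3 and 7.53%, 7.39% and 6.98% in the spleens. The kidneys again lay below the spleens without overlap, as did 16.7% of the 24 Trbv genes. The log2 difference was -0.38 (SE 0.127) with an unadjusted p of 0.00545 and an adjusted p of 0.131 (edgeR quasi-likelihood test), the smallest p of the 24 genes. None of the genes passed (0% of 24, with 3 at an unadjusted p under 0.05, and 0 called by DESeq2). With TMM normalization in place of library sizes Trbv31 passed, at -0.45 and an adjusted p of 0.0376. With clonotypes of at least 2 UMIs the direction turned, to 0.14 for clonotypes and 0.02 for UMIs.

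**Figure D1:**
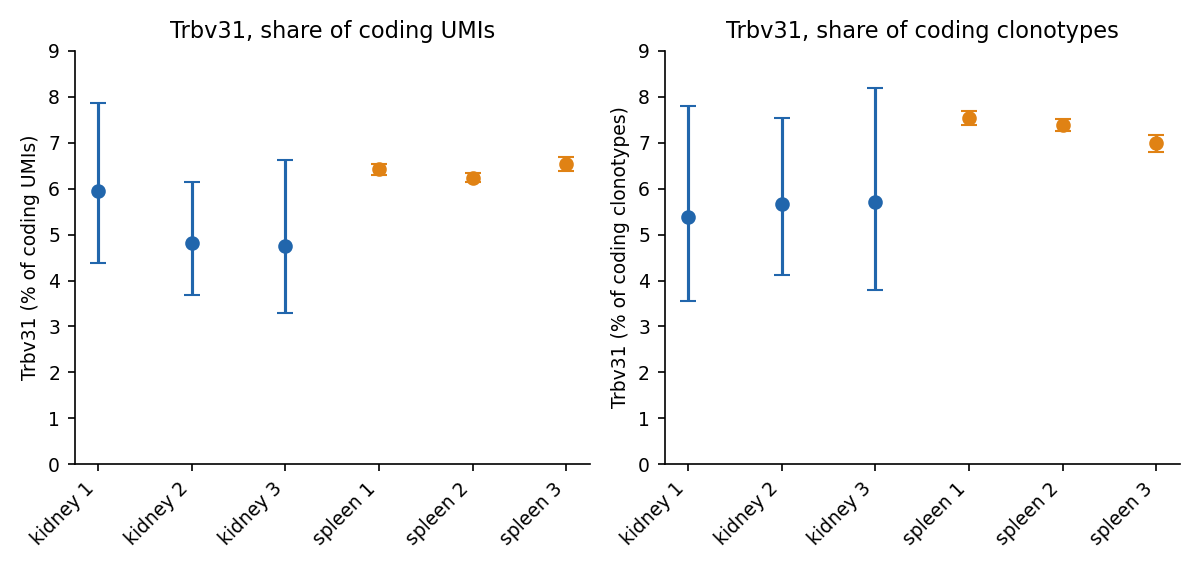
Share of Trbv31 in each library, as a percentage of coding UMIs (left) and of coding clonotypes (right). Points are the 3 kidney and 3 spleen libraries with exact binomial 95% intervals. On the left, the kidney points, at 4.76% to 5.95% of UMIs, lie below the spleen points, at 6.24% to 6.54%. Their intervals reach the spleen values in kidneys 1 and 3 but end at 6.15% in kidney 2. On the right, the kidney points lie at 5.38% to 5.71% of clonotypes and the spleen points at 6.98% to 7.53%. There the intervals of all 3 kidneys cover the spleen points.

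Among the Trbv genes of the spleen, Trbv31 ranked seventh by UMIs at 6.40% ± 0.152 (SD, n = 3). Its spleen values overlapped neither with those of Trbv3 above it (7.58% ± 0.444) nor with those of Trbv19 below it (5.07% ± 0.714). The most used gene was Trbv1 at 12.5% ± 1.00 and the least used Trbv22 at 0.00702% ± 0.00391. By clonotypes Trbv31 ranked sixth at 7.30% ± 0.283 (SD, n = 3), between Trbv3 (7.71% ± 0.428) and Trbv13-1 (7.29% ± 0.106), and here its values overlapped with those of both neighbours. Trbv13-2 was the most used gene by clonotypes at 11.5% ± 0.440. The genes whose share of UMIs was most like that of Trbv31 over the 6 libraries were Trbv3, Trbv19 and Trbv16, with a mean absolute log2 difference of 0.28, 0.30 and 0.42. This measure covered the 19 other genes that were found in every library.

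The V end of Trbv31 was kept intact far more often than that of other Trbv genes. In spleens 1, 2 and 3, 62.5%, 62.1% and 62.4% of Trbv31 clonotypes had lost no V base, against 24.4%, 24.5% and 24.6% of the clonotypes of all other Trbv genes together. With the reference V ends that MiXCR used, this was the highest share of the 22 Trbv genes, followed by Trbv12-2 at 55.7% ± 0.444 (SD, n = 3), and the lowest was Trbv4 at 1.27% ± 0.116. Trbv31 clonotypes lost on average 0.955, 0.993 and 0.975 V bases in the 3 spleens, whereas those of other genes lost 2.54 in each. The difference of -1.56 bases (SE 0.0162) passed the test (limma, adjusted p = 1.98e-06), as did that of 90.9% of the 22 genes. By these ends Trbv31 lost the fewest V bases of the 22 genes, without overlap with the next, Trbv12-2 (1.20 ± 0.0434), and Trbv4 lost the most (4.45 ± 0.0148). In the kidneys, 61.5%, 72.1% and 70.4% of Trbv31 clonotypes had an intact V end, against 24.3% to 28.3% of the others. On the J side Trbv31 clonotypes lost 2.69 ± 0.0444 bases and the others 2.82 ± 0.0106 (SD, n = 3), a difference that was not tested.

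**Figure D2:**
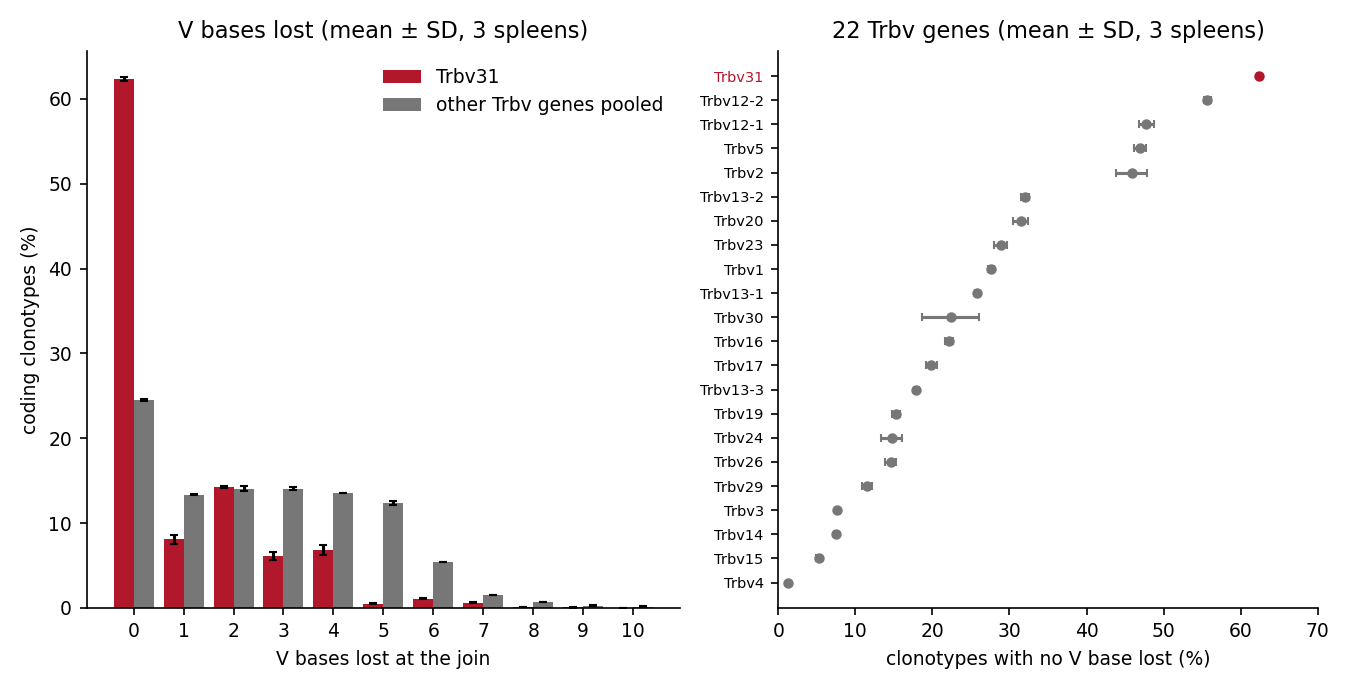
Left, percentage of coding spleen clonotypes by the number of V bases lost at the join, for Trbv31 and for all other Trbv genes pooled (bars, mean; error bars, SD of 3 spleens). Right, percentage of clonotypes with no V base lost for each of 22 Trbv genes (mean ± SD of 3 spleens), with Trbv31 at the top at 62.3% and Trbv4 at the bottom at 1.27%. With a T after the Trbv31 end counted as germline, Trbv31 would stand at 39.5%.

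How many V bases count as lost depends on where the reference ends, and for Trbv31 the base after that end was unevenly distributed. Among spleen Trbv31 clonotypes with an intact V end, the next base was T in 63.4%, 63.6% and 63.1% in mice 1, 2 and 3. The last V base is C, so a palindromic base left by hairpin opening would be its complement G, which stood there in 12.6% of the 15012 clonotypes pooled over the spleens. In 18 of the 22 Trbv genes the most frequent next base was the complement of the last V base. Trbv4, Trbv19, Trbv20 and Trbv31 were the others. With a T after the last base counted as part of Trbv31, its clonotypes lost 1.58 ± 0.0198 (SD, n = 3) V bases, which was still 0.959 fewer than the others (limma, adjusted p = 6.70e-06). Trbv31 then no longer lost the fewest, since Trbv5, Trbv2, Trbv12-1 and Trbv12-2 lost fewer. Its share with an intact V end became 39.5% ± 0.115 (SD, n = 3), behind Trbv12-2, Trbv12-1, Trbv5 and Trbv2. The end of the gene was not checked against a genome sequence.

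More bases that neither the V, the D nor the J segment accounted for were found in Trbv31 joins. Palindromic bases that MiXCR recognised at the V end were counted with the V part and not here. The complement of the last V base was rare after the Trbv31 end, as given above. How much of the difference comes from this way of counting was not tested. Clonotypes with a D call held on average 3.00, 3.00 and 2.94 such bases in spleens 1, 2 and 3, against 2.49, 2.49 and 2.47 in the clonotypes of other Trbv genes. The difference of 0.494 bases (SE 0.0229) passed the test (limma, adjusted p = 3.85e-07), as it did for 72.7% of the 22 genes. With the reference V end as given, Trbv31 ranked first of the 22, its values overlapping with those of Trbv24 (2.85 ± 0.168), and Trbv12-2 had the fewest (2.15 ± 0.0564). With the T after the V end counted as germline, the excess fell to 0.15 bases and still passed (limma, adjusted p = 0.000195). At 2.64 ± 0.0319 bases (SD, n = 3) Trbv31 then ranked sixth, below Trbv24, Trbv14, Trbv29, Trbv19 and Trbv4. The whole stretch between the V and J parts was 9.69 ± 0.0260 bases in Trbv31 and 8.85 ± 0.00760 in the others (SD, n = 3), which overlapped with Trbv24 (9.64 ± 0.376), the next gene. With the T counted it was 9.33 ± 0.0253 bases, below Trbv24 and Trbv4. In the kidneys, by the reference V end as given, Trbv31 clonotypes with a D call had 3.47, 2.80 and 2.71 bases outside the segments in mice 1, 2 and 3 (n = 15, 35 and 17 clonotypes), and the others 2.28 to 2.37. With the T counted, the Trbv31 values were 3.20, 2.46 and 2.35, against 2.29, 2.37 and 2.28 in the others. Kidneys 2 and 3 then lay close to the other genes.

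The CDR3 of Trbv31 clonotypes was nevertheless shorter than that of the others. Its mean length was 40.8, 40.8 and 40.9 bases in spleens 1, 2 and 3, against 41.6 bases in each spleen for other Trbv genes. The difference of -0.765 bases (SE 0.0276) passed the test (limma, adjusted p = 4.66e-05), as it did for 95.5% of the 22 genes, while the medians were equal. A CDR3 of 42 bases was the most frequent length in both, with 33.0% ± 0.910 of Trbv31 and 30.95% ± 0.121 of other clonotypes (SD, n = 3). Lengths of 45 bases made up 17.3% ± 0.598 of Trbv31 and 21.9% ± 0.0750 of other clonotypes. Trbv31 ranked 16 of 22 by mean length, at 40.84 ± 0.0277 bases, and its neighbours Trbv14 (40.87 ± 0.133) and Trbv26 (40.84 ± 0.00902) overlapped with it. Trbv5 had the longest CDR3 (43.5 ± 0.0628) and Trbv30 the shortest (38.8 ± 0.113).

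**Figure D3:**
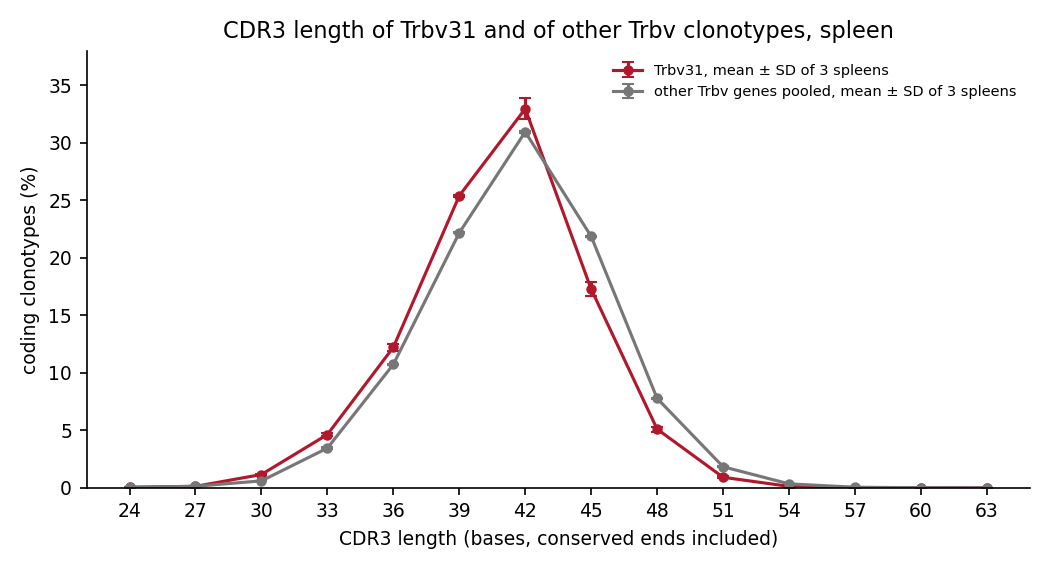
Distribution of CDR3 length in bases over coding spleen clonotypes of Trbv31 and of all other Trbv genes pooled (points, mean; error bars, SD of 3 spleens). Both curves peak at 42 bases, and at 45 bases Trbv31 stands at 17.3% and the others at 21.9%.

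Trbv31 was joined to the same Trbj genes as the other Trbv genes, but in different proportions. Of the 12 Trbj genes found in coding clones, 5 were used more and 5 less by Trbv31 at an adjusted p under 0.05 (edgeR quasi-likelihood test with the mouse as block, 83.3% of 12 called). These are shares of a fixed total, so a higher share of some J genes lowers that of others. The same test was not run for any other Trbv gene. Trbj1-2 differed most. It made up 7.51%, 7.69% and 7.23% of Trbv31 clonotypes in spleens 1, 2 and 3 and 5.20%, 5.40% and 4.82% of the others, a log2 difference of 0.53 (SE 0.0348, adjusted p = 7.98e-13). Without mouse 1 the difference stayed at 0.53, with an adjusted p of 0.00268 (edgeR quasi-likelihood test).

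Trbj1-4, Trbj2-3 and Trbj2-4 followed. Trbj1-4 took 9.43%, 9.02% and 8.60% of Trbv31 clonotypes in spleens 1, 2 and 3, against 7.04%, 7.20% and 6.84% of the others, a log2 difference of 0.36. Trbj2-3 took 12.3% ± 0.131 of Trbv31 clonotypes against 10.0% ± 0.192 (SD, n = 3), a log2 difference of 0.29. On the lower side, Trbj2-4 took 7.01%, 7.45% and 7.61% of Trbv31 clonotypes against 9.32%, 9.43% and 9.64%, a log2 difference of -0.36. None of these values overlapped between Trbv31 and the others, as for 75% of the 12 Trbj genes.

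The other J genes differed less. Trbj2-5 (-0.23), Trbj2-7 (-0.20), Trbj1-3 (-0.16) and Trbj2-2 (-0.15) were used less by Trbv31 on the log2 scale, and Trbj2-1 (0.12) and Trbj1-6 (0.15) more. Trbj1-6 was the weakest call (adjusted p = 0.0468), and it was lost without any 1 of the mice. Trbj2-2 was lost without mouse 1 (-0.10, adjusted p = 0.0575). Trbj1-1 (-0.03) and Trbj1-5 (0.03) did not pass. Trbj2-7 was the J gene most often joined to Trbv31 all the same, at 15.0% ± 0.379 against 17.2% ± 0.316 (SD, n = 3) in the other genes. Of the 21 other Trbv genes, Trbv20 had the J usage nearest to that of Trbv31, with 4.64% of clonotypes having to change their J gene for the shares to match, followed by Trbv13-3 (7.11%) and Trbv2 (8.04%). For the others pooled this distance was 7.73%.

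**Figure D4:**
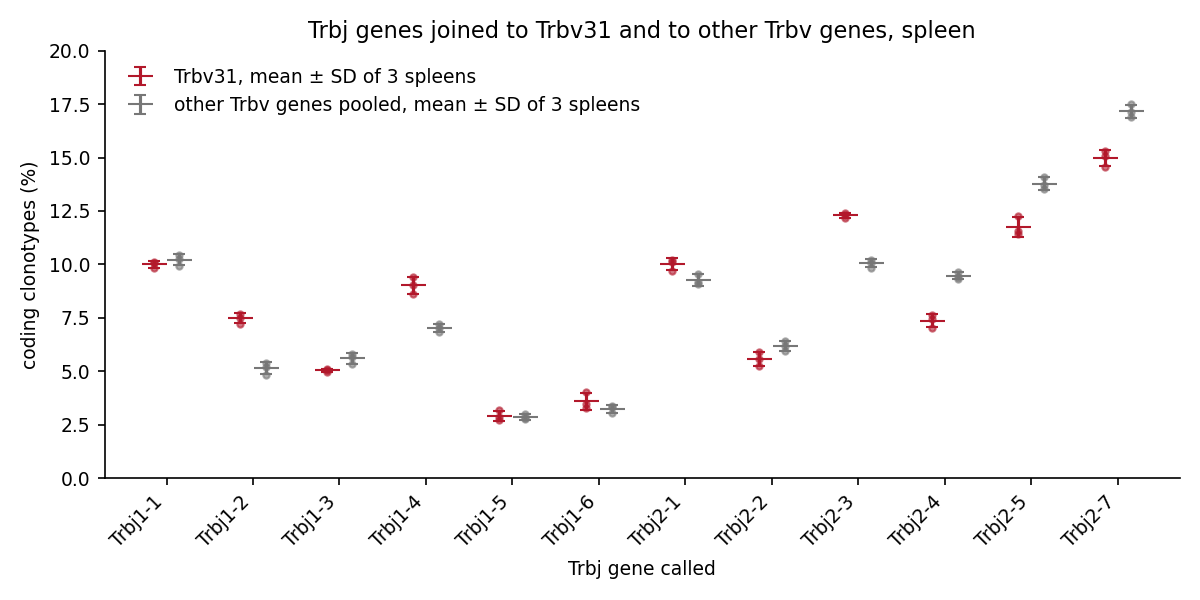
Percentage of coding spleen clonotypes with each of 12 Trbj genes, for Trbv31 and for all other Trbv genes pooled (small points, the 3 spleens; bars, mean ± SD). Trbv31 stands higher at Trbj1-2 (7.48% against 5.14%), Trbj1-4 and Trbj2-3 and lower at Trbj2-4 (7.36% against 9.47%), Trbj2-5 and Trbj2-7.

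Summed over the clusters, Trbj2 genes made up 61.2%, 61.4% and 63.3% of Trbv31 clonotypes in spleens 1, 2 and 3 and 65.7%, 64.8% and 67.3% of the others. The difference of -3.96 percentage points (SE 0.527) passed the test (limma, adjusted p = 0.000195), as it did for 59.1% of the 22 Trbv genes. Trbv31 lay second from the bottom, between Trbv1 (62.4% ± 1.71), with which it overlapped, and Trbv26 (59.6% ± 1.29). Trbv30 had the highest Trbj2 share, at 76.6% ± 2.04.

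The D segment differed in the opposite sense. Among Trbj2 clonotypes with a D call, Trbd2 was called in 62.0%, 61.6% and 61.1% of those with Trbv31 in spleens 1, 2 and 3, and in 53.0%, 52.3% and 53.0% of the others. The difference of 8.86 percentage points (SE 0.496) passed the test (limma, adjusted p = 0.000160), as it did for 68.2% of the 22 genes. Trbv31 was second to Trbv4 (62.4% ± 0.729), with which it overlapped, and above Trbv13-2 (60.3% ± 0.175), and Trbv29 was lowest at 30.4% ± 0.354. As a gauge of wrong D calls, Trbd2 was called with a Trbj1 gene, which lies before it, in 9.03% ± 0.440 of the D calls of Trbv31 and 8.06% ± 0.137 of those of the others (SD, n = 3). A D was called in 74.8% ± 0.550 of Trbv31 clonotypes and 71.6% ± 0.119 of the others (SD, n = 3).

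**Figure D5:**
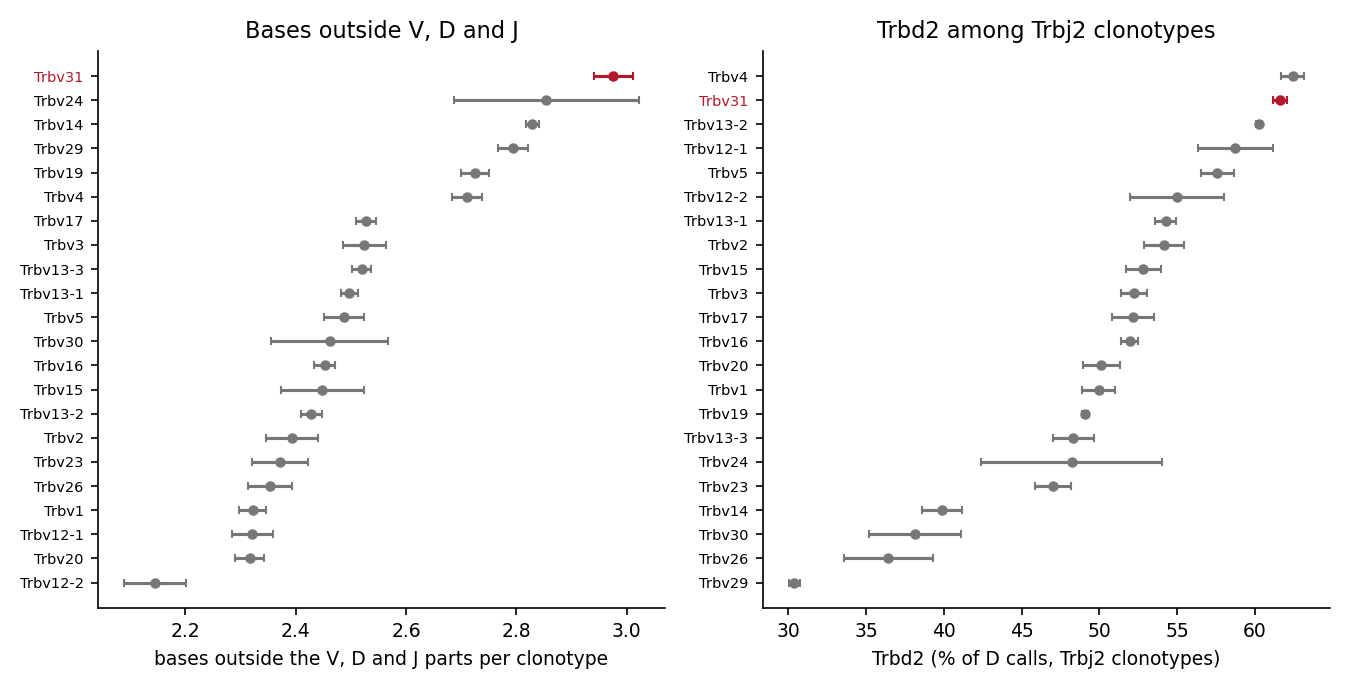
Order of 22 Trbv genes in the spleen by the mean number of bases outside the V, D and J parts per clonotype with a D call (left) and by the percentage of Trbd2 among D calls of Trbj2 clonotypes (right), with points and bars for the mean ± SD of 3 spleens. Trbv31 is first on the left at 2.98 bases (2.64 with a T after its V end counted as germline) and second on the right at 61.6%, and the axes do not start at 0.

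Clones whose join is out of frame give no chain that a cell can be selected on, so their V, D and J usage was examined as well. In frameshift clones of the spleens (398, 507 and 327 with Trbv31), Trbj2 genes made up 55.8% ± 0.364 of those with Trbv31 and 65.0% ± 1.51 of the others (SD, n = 3), a difference of -9.17 percentage points (limma, adjusted p = 0.000303). Trbd2 made up 67.7% ± 0.344 of the D calls of Trbj2 frameshift clones with Trbv31 and 51.7% ± 0.881 of those of the others, a difference of 16.02 points (limma, adjusted p = 0.00430). By the reference V end as given, frameshift Trbv31 clones had lost 1.09 ± 0.0527 V bases against 2.74 ± 0.0257 (limma, adjusted p = 6.37e-05). The excess of bases outside the segments, 0.44, did not pass (limma, adjusted p = 0.172). Of the single J genes, Trbj1-1 alone passed (log2 difference 0.45, edgeR adjusted p = 0.0134), with 4 of 12 at an unadjusted p under 0.05, and Trbj2-3 pointed the other way than in coding clones, at -0.17. The log2 differences that did not pass were 0.34 for Trbj1-2, 0.30 for Trbj1-4, -0.26 for Trbj2-4, -0.25 for Trbj2-5 and -0.37 for Trbj2-7.

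Trbv31 gave fewer non-coding clones than the other genes in 2 of the 3 spleens. Frameshifts and stop codons together made up 4.69%, 4.75% and 5.76% of Trbv31 clones in spleens 1, 2 and 3 and 6.51%, 6.73% and 5.44% of the clones of other genes. In spleen 3 the order was thus reversed. As a within-spleen difference it was -1.17 percentage points (SE 0.607) and did not pass (limma, adjusted p = 0.169), whereas 81.8% of the 22 genes did. Without mouse 3 it passed, at -1.90 points (adjusted p = 0.0123).

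Tested instead on the clone counts, Trbv31 was less frequent among non-coding than among coding clones, with a log2 difference of -0.31 (SE 0.113, edgeR adjusted p = 0.0336). In this test 87.5% of 24 Trbv genes passed. The call was lost without mouse 1 (-0.22, adjusted p = 0.137) and without mouse 2 (-0.20, adjusted p = 0.0942). Stop codons within an open frame were found in 9, 10 and 6 Trbv31 clones, or 0.0997% ± 0.00686 of its clones against 0.253% ± 0.0139 of the others (SD, n = 3). For these the log2 difference was -1.32 (edgeR adjusted p = 1.13e-05), and for frameshifts alone it was -0.28 and did not pass (adjusted p = 0.11). The others pooled mix unlike genes. Non-coding and frameshift shares were 13.3% and 10.8% in Trbv4, 2.98% and 2.92% in Trbv13-2, and 5.06% and 4.96% in Trbv31. The stop codon difference from the pool therefore does not place Trbv31 among the single genes. In the order of the 22 genes by non-coding share, Trbv31 stood between Trbv16 (5.21% ± 0.740) and Trbv19 (4.22% ± 0.624), and it overlapped with Trbv16. Trbv24 had the highest non-coding share, at 75.4% ± 0.987, and Trbv13-2 the lowest, at 2.98% ± 0.437. In the kidneys 2 of 28, 7 of 50 and 1 of 28 Trbv31 clones were non-coding.

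Trbv31 clonotypes of the spleen were mostly seen once. They held on average 1.24, 1.35 and 1.17 UMIs in spleens 1, 2 and 3, against 1.48, 1.62 and 1.26 in other genes, and 81.5%, 75.5% and 86.9% of them had a single UMI, against 71.5%, 64.1% and 81.5%. The difference of -0.195 UMIs (SE 0.0431) passed the test (limma, adjusted p = 0.0141), as it did for 54.5% of the 22 genes. It was lost without mouse 1 (-0.18, adjusted p = 0.0703) and without mouse 2 (-0.16, adjusted p = 0.166). Trbv31 ranked 18 of 22, with overlap with both Trbv2 (1.27 ± 0.109) and Trbv14 (1.25 ± 0.0695), and the range ran from Trbv24 (1.08 ± 0.0455) to Trbv1 (1.69 ± 0.317). The largest Trbv31 clonotypes held 16, 37 and 22 UMIs in the 3 spleens, and the largest of other genes 359, 234 and 101. At least 10 UMIs were reached by 5, 14 and 2 Trbv31 clonotypes, or 0.0605%, 0.135% and 0.0367%, and by 0.269%, 0.315% and 0.0812% of the others. Trbv31 clonotypes had 14.8, 9.57 and 23.6 reads per UMI in the 3 spleens and the others 12.9, 8.46 and 20.99. The kidney libraries had far more, at 824, 497 and 656 for Trbv31 in kidneys 1, 2 and 3 and 791, 466 and 606 for the others. How this difference bears on the comparisons between the organs was not tested.

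Most Trbv31 clonotypes occurred in 1 spleen only. Of 23194 distinct Trbv31 clonotypes, 712 were in 2 spleens and 96 in all 3, together 3.48%, against 3.71% of 292068 clonotypes of other genes. Within each spleen, 7.22%, 6.18% and 8.69% of the Trbv31 clonotypes were found in another spleen, against 7.75%, 6.64% and 8.95%. The difference of -0.416 percentage points (95% interval -1.27 to 0.435) did not pass (limma, adjusted p = 0.346), whereas 81.8% of the 22 genes did. Trbv31 stood between Trbv20 (8.002% ± 1.33) and Trbv13-3 (6.62% ± 0.656) with overlap, and the range ran from Trbv24 (0.281% ± 0.246) to Trbv1 (11.9% ± 1.58). With other genes averaged with equal weight the difference turned to 1.87 points and passed (adjusted p = 3.00e-04). Weighted by UMIs it was -1.97 (adjusted p = 4.66e-06), and among clonotypes of at least 2 UMIs -1.57 (adjusted p = 0.048).

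Trbv31 clonotypes found in several spleens had lost fewer V bases and held fewer bases outside the segments, which is given as a description with no test. By the reference V end as given, V ends were intact in 60.8% of those in 1 spleen, 80.8% of those in 2 and 86.5% of those in 3. Those with a D call had 3.09, 1.499 and 1.03 bases outside the segments, and their mean CDR3 lengths were 40.9, 39.7 and 39.2 bases. In other genes the bases outside the segments went from 2.59 to 0.855 and 0.516, and intact V ends from 23.96% to 29.9% and 35.8%. The pair of Trbv31 clonotypes with the highest lowest-spleen count show the type, with an intact V end in each and 6 bases before the J part.
In 3 spleens, Trbj2-5: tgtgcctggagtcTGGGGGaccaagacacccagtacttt
In 3 spleens, Trbj2-3: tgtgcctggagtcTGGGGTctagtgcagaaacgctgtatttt
The first held 8, 5 and 4 UMIs in spleens 1, 2 and 3, and the second 3 UMIs in each. A further 8 Trbv31 clonotypes tied at the next place with at least 2 UMIs in every spleen.

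Kidney Trbv31 clonotypes were few. Those with a single UMI made up 61.5%, 76.7% and 88.9% of them in mice 1, 2 and 3, against 74.4%, 77.4% and 75.6% in other genes, so kidney 1 lay lower and kidney 3 higher. The largest held 6, 4 and 4 UMIs, and the largest of the far more numerous clonotypes of other genes 20, 40 and 33. Of 26, 43 and 27 kidney Trbv31 clonotypes, 11, 21 and 7 were also in the spleen of the same mouse, or 42.3%, 48.8% and 25.9%. For other genes the shares were 48.6%, 50.9% and 44.4%. Trbv31 was lower in each mouse, by 8.94 percentage points on average (exact sign-flip permutation test over the 3 mice, two-sided, p = 0.25, the smallest it allows). Without mouse 3 the difference was -4.17 points, and among clonotypes of at least 2 UMIs -3.14 points. The exact binomial 95% intervals of the Trbv31 shares were 23.4% to 63.1%, 33.3% to 64.5% and 11.1% to 46.3%. In the spleens of the other mice, at most 11.5% of a kidney's Trbv31 clonotypes were found.

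The largest Trbv31 clonotypes of each kidney were, with 1 exception, also in the spleen of the same mouse. Kidney and spleen 1 are from mouse 1, and so on. The one of kidney 1 shown above with Trbj2-1 ranked 11 by UMIs in that kidney. It had 13 UMIs in spleen 1, where it was the third-largest Trbv31 clonotype. The next in kidney 1, with Trbj2-5 and with Trbj2-7, had 4 UMIs each in the kidney and 5 and 6 in spleen 1. In kidney 2, the clonotypes with Trbj2-2 and Trbj2-4 had 4 UMIs each, and 6 and 1 in spleen 2. In kidney 3 the first, with Trbj1-4, had 4 UMIs and 9 in spleen 3, the next, with Trbj2-5, had 3 UMIs and was not detected in that spleen, and the third, with Trbj2-5, had 2 UMIs and 1 in the spleen. Of the leading Trbv31 clonotypes of the spleens, the second of spleen 1 (Trbj2-7, 14 UMIs) had 3 UMIs in kidney 1 and the second of spleen 2 (Trbj1-1, 32 UMIs) had 2 in kidney 2. The leading clonotype of each spleen was not detected in the kidney of the same mouse at this depth.

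Neither the CDR3 length nor the Trbj2 usage of Trbv31 passed a test between the organs, with 26 to 43 clonotypes per kidney. The mean CDR3 length was 40.6, 41.9 and 41.0 bases in kidneys 1, 2 and 3, around the 40.8 to 40.9 bases of the spleens. The difference was 0.316 bases (exact permutation test, two-sided, p = 0.7). Trbj2 genes made up 15 of 26, 32 of 43 and 20 of 27 kidney Trbv31 clonotypes, or 57.7%, 74.4% and 74.1%, with exact binomial 95% intervals of 36.9% to 76.6%, 58.8% to 86.5% and 53.7% to 88.9%. Kidney 1 lay below the spleens and kidneys 2 and 3 above them, and the mean difference was 6.77 percentage points (exact permutation test, two-sided, p = 0.4). It was 11.9 points without mouse 1, 3.64 without mouse 2 and 1.17 among clonotypes of at least 2 UMIs, and weighted by UMIs it was 7.94 (exact permutation test, p = 0.1). In these tests of 3 against 3 libraries, p cannot go below 0.1.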

How the data were processed

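TCR-β mRNA of sorted CD4+ T cells was amplified by 5′ RACE with UMIs in the template-switching oligonucleotide. The authors assembled the reads with MiXCR, and the submitters' processing notes name R 4.4.2 and the mouse builds GRCm38 and mm10. The deposited values are counts of UMIs and of reads per clone, not normalized, and the deposited fraction columns served only to check the counts. UMI totals over all clones were 734 to 1308 in the kidneys and 102453 to 236000 in the spleens, and this number limits the precision.

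Clonotypes were coding clones with the same CDR3 bases, V and J gene, and V bases lost were read from MiXCR's reference points. Usage was tested with edgeR 4.0.16 (quasi-likelihood, library sizes only, at least 10 counts per gene). Features of the join were tested with limma 3.58.1 on each gene's difference from all other genes within a spleen, over 22 Trbv genes with at least 100 clonotypes in each spleen. P-values were Benjamini-Hochberg adjusted over all genes tested, at 0.05. DESeq2 1.42.0, R 4.3.3, Python 3.11.15 and scipy 1.17.1 were also used. The edgeR and limma steps were tested on simulated data.

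The genes named are Trbv31, all Trbd and Trbj genes, the neighbours of Trbv31 and the extremes in each order of spleen means, and the 3 genes most like it. The clonotypes named are the 3 largest of Trbv31 per library and the 3 shared by all spleens with the highest lowest count, without tied last places. All 24 Trbv and 14 Trbj names matched RefSeq symbols. Members and lists were chosen with earlier results of these data known. Kidney and spleen of the same number are from the same mouse by the labels, and how far each lay from its organ's mean usage of the 24 Trbv genes correlated between them at 0.04, 0.30 and 0.38 in mice 1, 2 and 3 (log2 of percent + 0.1). Between organs of different mice the correlation ran from -0.34 to 0.09. The value of 0.09 was that of kidney 1 with spleen 2, above that of kidney 1 with its own spleen. Distances from an organ's mean cancel over its 3 libraries, so a positive value within a mouse forces lower values between mice. The values between mice are therefore not an independent baseline for the labels. The main organ tests of usage, CDR3 length and Trbj2 share did not use the pairing of kidney and spleen by mouse. The test of kidney clonotypes in the spleen of the same mouse did. Tests within the spleen compared clones of the same library. Alternatives changed the block, normalization, tool, filters, unit and libraries.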

Additional observations from a re-analysis of the deposited data

How the results depend on the processing

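Of 280 alternative values, 233 kept their direction and side of the threshold, among them all for V bases lost, the Trbj2 share and the Trbd2 share. Some of these could not change. The filter on low counts had removed no gene, so fits without it gave the main values. All Trbv31 clones had a single V call, so that choice left the kidney CDR3 length and Trbj2 share of Trbv31 as they were. Clonotypes of at least 2 UMIs turned Trbv31 usage to 0.017 by UMIs and 0.14 by clonotypes, its log2 share of non-coding clones to 0.013 and its non-coding difference to 0.19 points, left 5 Trbj calls in place of 10, turned Trbj1-5 to -0.28 and Trbj1-6 to -0.0051, and gave -1.57 points for sharing between spleens. TMM brought the clonotype share past the threshold (-0.45). By UMIs the non-coding log2 difference was -0.047, for frameshifts alone -0.28, and without 1 mouse -0.49 to -0.20. Without 1 mouse the non-coding share differed by -1.90 to -0.756 points, UMIs per clonotype by -0.25 to -0.159, Trbj1-5 by -0.0062 to 0.074 and the kidney CDR3 length by -0.046 to 0.584 bases. An unweighted mean of the other genes gave -6.77 points for the non-coding share and 1.87 for sharing, and weighting by UMIs -1.97 for sharing. Medians of CDR3 length did not differ (0 bases), which left nothing to test. In frameshift clones, chosen as an alternative after seeing the data as were the moved V end and the single libraries left out, 1 Trbj gene was called, bases outside the segments differed by 0.44, and Trbj1-1 (0.45), Trbj1-3 (0.27), Trbj1-5 (-0.12) and Trbj2-3 (-0.17) changed sign. The cause of these changes was not tested, except that frameshift clones and clones of at least 2 UMIs are fewer.

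In the fits with mouse as the replicate block, the kidney difference of Trbv31 was -0.31 by UMIs (edgeR adjusted p = 0.634) and -0.39 by clonotypes (adjusted p = 0.145), and p was 0.75 for CDR3 length and 0.5 for the Trbj2 share (exact sign-flip permutation test). Without the block, 9 Trbj genes were called, Trbj1-6 being lost, and the non-coding difference was -0.30 (adjusted p = 0.0417). Over the 24 Trbv genes, 1 was called by UMIs, against 2 with DESeq2, 2 with TMM and 0 with the block, and by clonotypes 0, against 1 with TMM. Depth limits the kidney values most, since 3 libraries gave 26 to 43 Trbv31 clonotypes each.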
